A study of Mus musculus with 10 samples.

Results

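Granule cells are the principal neurons of the dentate gyrus, the gate through which cortical input enters the hippocampus, and their axons, the mossy fibres, excite CA3 pyramidal cells. Mature granule cells are told from other hippocampal neurons by a small set of genes, and a mature cell that loses some of them while keeping others is often called dedifferentiated. The levels of 6 such markers, *Prox1*, *Calb1*, *Dsp*, *Tdo2*, *C1ql2* and *Plk5*, were examined after pilocarpine (PILO)-induced status epilepticus (SE). The study set SE at 5 generalized convulsive seizures, and SE precedes epilepsy in this mouse model. Members were the rows of the gene table that carry one of these symbols. Of the 6 markers searched for, 5 were found among 15900 rows, and all 5 passed the filter on low values. *Dsp*, which encodes the desmosome protein desmoplakin, was not analysed here.

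The data were cap analysis of gene expression (CAGE) tags, each marking the capped 5′ end of an RNA, from whole hippocampi of 10 male ICR mice aged 9 to 10 weeks at PILO. There were 5 groups of 2 mice. Pre-SE mice are labelled untreated, although the methods of the study give its controls saline where others had PILO and do not say whether this holds for the CAGE mice. SE 6 h and SE 2 days mice were taken at those times after SE, and SE + LEV 6 h and SE + LEV 2 days mice also received levetiracetam (LEV). All SE mice received methyl scopolamine, PILO and then diazepam, which ended the seizures, so that diazepam was part of the groups with and without LEV. LEV, an anti-seizure drug, was given by mouth soon after diazepam, 1 time in SE + LEV 6 h mice and 5 times in SE + LEV 2 days mice. Litters, days and batches of the mice are not given in the sources used here, so the p-values below measure only the spread between these mice.

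The markers have different roles. *Prox1* encodes a homeobox transcription factor that specifies granule cells and keeps their identity in the adult. *Calb1* encodes calbindin, a cytosolic calcium buffer of mature granule cells that is also made by CA1 pyramidal cells and some interneurons, and a loss of calbindin from granule cells is well known in mice with seizures. *Tdo2* encodes tryptophan 2,3-dioxygenase, the first enzyme of the kynurenine pathway, and *Plk5* an atypical polo-like kinase of the brain. *C1ql2* encodes a secreted C1q-like protein that mossy fibres release at their synapses on CA3 cells.

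The genes lay on 4 chromosomes of mm9. *Prox1* (ENSMUSG00000010175) was on the minus strand of chromosome 1 from 191945660 to 191994559 and overlapped *Gm17566* on the plus strand, and whether strand was used in counting is not given in the sources used here. *C1ql2* (ENSMUSG00000036907) was on the plus strand of chromosome 1 from 122237159 to 122239748. *Calb1* (ENSMUSG00000028222) was on the plus strand of chromosome 4 from 15808411 to 15835211, *Tdo2* (ENSMUSG00000028011) on the minus strand of chromosome 3 from 81761012 to 81780124, and *Plk5* (ENSMUSG00000035486) on the plus strand of chromosome 10 from 79819204 to 79828234. These 4 genes overlapped no other annotated gene.

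CAGE reads the output of promoters, so the 250 bases before the annotated start of 4 markers are shown, the pair that fell most (*Tdo2*, *Plk5*) and the pair that did not (*Prox1*, *C1ql2*). They are RefSeq sequences of GRCm38.p6, written 5′ to 3′ on the gene's strand, and are a different build from the mm9 coordinates above. Capitals mark the letters of 5 motifs searched on both strands: TATAAA of the TATA box, GGGCGG of the GC box, CCAAT of the CAAT box, TGANTCA of the AP-1 motif and TGACGTCA of the cAMP response element. The gene table does not give the position of tags within a gene, so which start was used was not examined.
*Tdo2*, chr3:81975729-81975978, minus strand: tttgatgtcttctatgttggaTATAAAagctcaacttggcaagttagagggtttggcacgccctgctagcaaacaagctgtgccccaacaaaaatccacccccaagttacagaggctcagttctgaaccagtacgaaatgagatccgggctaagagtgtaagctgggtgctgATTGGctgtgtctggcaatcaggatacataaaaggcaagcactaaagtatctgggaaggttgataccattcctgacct
*Plk5*, chr10:80356209-80356458, plus strand: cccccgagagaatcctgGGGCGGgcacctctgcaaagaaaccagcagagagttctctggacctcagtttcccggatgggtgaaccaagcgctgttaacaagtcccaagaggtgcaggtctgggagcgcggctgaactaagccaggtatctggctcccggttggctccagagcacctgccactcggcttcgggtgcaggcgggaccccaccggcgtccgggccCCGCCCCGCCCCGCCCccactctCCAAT
*Prox1*, chr1:190170828-190171077, minus strand: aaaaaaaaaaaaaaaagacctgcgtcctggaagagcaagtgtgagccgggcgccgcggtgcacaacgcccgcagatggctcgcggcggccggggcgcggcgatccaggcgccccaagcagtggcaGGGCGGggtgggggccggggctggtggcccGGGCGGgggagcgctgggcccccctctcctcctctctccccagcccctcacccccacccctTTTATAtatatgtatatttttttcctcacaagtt
*C1ql2*, chr1:120340332-120340581, plus strand: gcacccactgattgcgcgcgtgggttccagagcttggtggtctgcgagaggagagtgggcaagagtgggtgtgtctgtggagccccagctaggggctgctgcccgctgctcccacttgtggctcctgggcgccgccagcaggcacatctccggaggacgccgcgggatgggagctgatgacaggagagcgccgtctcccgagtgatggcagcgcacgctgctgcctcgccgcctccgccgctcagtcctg

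The promoters differed in base composition. That of *Tdo2* had a GC content of 46.4% and 3 CpG sites, below the median of 52.4% and 6 CpG sites over 32851 promoters. Those of *Plk5* (65.6%, 16 CpG sites), *Prox1* (64.8%, 20) and *C1ql2* (68.8%, 20) were above it. The *Tdo2* promoter held TATAAA on the plus strand at −229 to −224 from the start and CCAAT on the minus strand at −78 to −74. That of *Plk5* held 4 GC boxes, 3 of them on the minus strand and end to end with shared bases between −28 and −13, and CCAAT at −5 to −1. The promoter shown for *Prox1* held 2 GC boxes and TATAAA on the minus strand at −34 to −29. A second *Prox1* promoter in the table, with a GC content of 56.0% and 11 CpG sites, held 1 GC box and no TATAAA. None of the 5 motifs was found in the *C1ql2* promoter. TATAAA was present in 12.4% of all promoters, GGGCGG in 32.7%, CCAAT in 33.8%, TGANTCA in 6.75% and TGACGTCA in 1.55%, and a match is a description of the letters only. *Calb1* has no entry in the promoter table.

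The libraries held 10540698 to 51710968 tags, so that a detection limit of 3 tags came to 0.058 to 0.285 CPM, the deposited unit, in which every library has the same total. *Prox1* was present in all 10 libraries at 39.36 CPM or more. Summed levels of 4 choroid plexus markers (*Ttr*, *Kl*, *Kcnj13*, *Clic6*) ran from 8.72 to 4024.58 CPM and were above 800 CPM in pre-SE mouse 2, SE 6 h mouse 2, SE + LEV 6 h mouse 1 and SE + LEV 2 days mouse 1, and at most 67.85 CPM in the other libraries. SE 2 days mouse 2 had the lower value of its pair for 4 of 5 markers and for 8 of 10 other granule cell genes, against 54.8% of all genes tested. The part of either in the results was not tested, and values without single mice are given below.

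After SE the markers did not move as a block (see the plot of CPM by mouse). *Calb1*, *Plk5* and *Tdo2* were lower in SE mice than in pre-SE mice at both times, with *Tdo2* near the limit of detection at 2 days. *Prox1* and *C1ql2* were higher in both SE 6 h mice than in both pre-SE mice and overlapped with pre-SE at 2 days. *Plk5* was the marker whose level was higher in both LEV mice than in both untreated SE mice at each time. These markers were chosen by their CPM values in the same comparisons, so their differences are described without p-values, and the calls given for them further on are descriptions from which nothing is read. In whole-hippocampus RNA, fewer granule cells and less RNA per granule cell cannot be told apart.

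**Figure D1:**
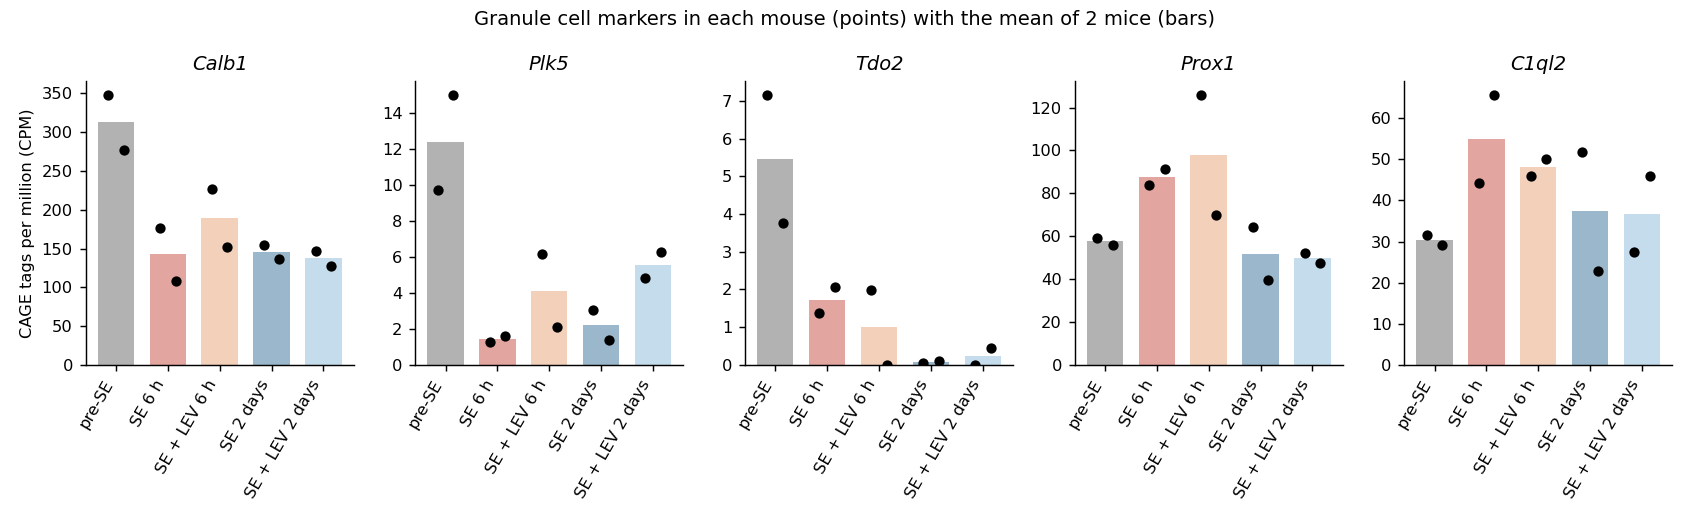
CAGE level in CPM (vertical axis, one scale per gene) of the 5 markers in each mouse (points) and as the mean of 2 mice (bars) for the 5 groups. *Calb1* was at 108.67 to 226.9 CPM in the 8 SE mice against 277.19 and 348.57 in pre-SE mice, whereas *Prox1* and *C1ql2* were highest at 6 h.

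*Calb1* was at 348.57 and 277.19 CPM before SE. It was at 176.82 and 108.67 CPM in SE 6 h mice and at 154.08 and 136.79 CPM in SE 2 days mice. All 4 untreated SE mice were thus below both pre-SE mice, and the means were 45.6% of the pre-SE mean at 6 h and 46.5% at 2 days. On the log2(CPM + 0.1) scale, which understates changes of low genes, the difference (logFC) was −1.16 at 6 h and −1.10 at 2 days, each with a standard error of 0.29. With LEV, *Calb1* was at 226.9 and 152.36 CPM at 6 h and at 146.81 and 127.78 CPM at 2 days. The LEV and untreated mice overlapped at both times (logFC 0.42 at 6 h and −0.08 at 2 days). All 8 SE mice were below both pre-SE mice, as was the case for 6.49% of all genes tested.

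*Calb1* was not called in any comparison by the criterion used here, a limma adjusted p of at most 0.05 over 15851 genes. This turned on the libraries in the fit, since at 2 days against pre-SE it was called without either SE 6 h mouse and with only the groups compared, and in SE + LEV 2 days mice without either SE 6 h mouse. At 2 days its logFC without single mice ran from −1.26 to −0.93. At 6 h it ran from −1.52 without SE 6 h mouse 1 to −0.81 without SE 6 h mouse 2. CA1 cells also make calbindin, so markers of pyramidal cells are given beside it. The summed CPM of 10 CA1, CA2 and CA3 markers was 702.73 and 569.26 before SE, 519.09 and 442.63 at 6 h and 544.16 and 567.65 at 2 days without LEV. *Wfs1* alone was at 190.41 and 182.61 CPM before SE and at 165.19 and 303.58 at 2 days, more than any other in the sum of SE 2 days mouse 2. At 6 h 6 of the 10 lay below and 0 above pre-SE in both mice, where 31.3% and 18.6% of all genes did. At 2 days 4 lay below and 2 above, where 25.6% and 26.3% did. Of these 10 genes, 0 were called at 6 h and 1 at 2 days. *Fibcd1*, a CA1 marker, fell at 2 days (logFC −2.02, standard error 0.50, limma adjusted p = 0.045), from 63.25 and 34.48 to 18.23 and 7.16 CPM. Its adjusted p ranged from 0.011 to 0.38 over the alternatives, and the call was lost without either pre-SE mouse, any of the 4 mice at 6 h or SE 2 days mouse 2, and with log2(CPM + 1), median-of-ratios rescaling or only the groups compared. How much of the *Calb1* difference lay in CA1 cells was not tested.

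*Plk5* was at 9.73 and 15.01 CPM before SE. In SE 6 h mice it was at 1.28 and 1.58 CPM, and in SE 2 days mice at 3.05 and 1.39 CPM. The SE mice did not overlap with the pre-SE mice at either time. The logFC was −3.0 at 6 h and −2.49 at 2 days (standard error 0.54), and the CPM of the pooled tags was 10.5% of pre-SE at 6 h (95% interval 8.01 to 13.5) and 17.3% at 2 days (14.0 to 21.2). These intervals cover counting error only, as do all intervals of pooled tags below, and not the spread between mice. Those given here rest on 63 tags at 6 h, 101 tags at 2 days and 1058 tags in pre-SE mice.

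In LEV mice *Plk5* was at 6.15 and 2.09 CPM at 6 h and at 4.8 and 6.24 CPM at 2 days. Both values lay above those of both untreated SE mice at each time, and both lay below the pre-SE mice. Among all genes tested, 2.25% were higher in both LEV mice at both times. The logFC of LEV against untreated SE was 1.28 at 6 h and 1.36 at 2 days, and neither was called. Without SE + LEV 6 h mouse 1 the 6 h value was 0.52 and without mouse 2 it was 2.04, so the size at 6 h rested on which LEV mouse was used. At 2 days the values without single mice ran from 0.82 to 1.90. The pooled CPM was 38.9% of pre-SE in SE + LEV 6 h mice (33.3 to 45.1) and 40.6% in SE + LEV 2 days mice (35.9 to 45.7). Pooling weights the mouse with more tags, which at 6 h was mouse 1 with 185 tags against 22. Taken singly, the SE + LEV 6 h mice were at 49.7% and 16.9% of the pre-SE mean, both outside the interval. The SE + LEV 2 days mice were at 38.8% and 50.4%.

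*Tdo2* was at 7.17 and 3.77 CPM in pre-SE mice, which is 208 and 195 tags. It was at 1.38 and 2.06 CPM in SE 6 h mice (43 and 30 tags) and at 0.04 and 0.1 CPM in SE 2 days mice (1 and 2 tags). Each step down was free of overlap. The pooled CPM was 31.9% of pre-SE at 6 h (24.5 to 41.1) and 1.35% at 2 days (0.277 to 3.97). The logFC was −1.57 at 6 h and −4.99 at 2 days (standard error 1.21), and −3.42 for SE 2 days against SE 6 h. *Tdo2* had the largest standard error of the 5 markers.

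With LEV, *Tdo2* differed between mice of the same group. SE + LEV 6 h mouse 1 was at 1.99 CPM (60 tags), whereas mouse 2 had 0 tags, which allows up to 0.285 CPM. SE + LEV 2 days mouse 1 had 0 tags, which allows up to 0.0686 CPM, and mouse 2 had 11 tags (0.45 CPM). LEV and untreated mice overlapped at both times, with a logFC of −1.97 at 6 h and 0.49 at 2 days. Without SE + LEV 6 h mouse 2 the 6 h value was 0.23 and without mouse 1 it was −4.16, so the sign rested on 1 mouse. Pooled over both LEV mice at 2 days, 3.24% of the pre-SE level was left (1.60 to 5.85, counting error only). Taken singly, these mice were at 0.0% and 8.23% of the pre-SE mean, both outside that interval.

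*Prox1* was at 59.15 and 56.12 CPM before SE and at 83.91 and 91.27 CPM in SE 6 h mice, a logFC of 0.60 (standard error 0.31) without overlap. In SE 2 days mice it was at 64.28 and 39.36 CPM, on either side of the pre-SE mice. The logFC at 2 days was −0.20, with a 95% interval from −0.89 to 0.50. Without SE 2 days mouse 2 it was 0.16, so the sign at 2 days rested on that mouse. *Prox1* was lower in both SE 2 days mice than in both SE 6 h mice (logFC −0.80). In LEV mice it was at 126.09 and 69.82 CPM at 6 h and at 52.19 and 47.64 CPM at 2 days, with logFC of 0.10 and −0.01 against untreated SE. The 6 h value ran from −0.33 to 0.53 without 1 of the SE + LEV 6 h mice.

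*C1ql2* followed *Prox1* at 6 h. It was at 31.66 and 29.28 CPM before SE and at 44.33 and 65.78 CPM in SE 6 h mice, a logFC of 0.82 (standard error 0.39) without overlap. At 2 days it was at 51.85 and 22.83 CPM, one mouse above and one below both pre-SE mice. The logFC was 0.18, with a 95% interval from −0.69 to 1.04, and −0.41 or 0.77 when 1 of the SE 2 days mice was left out. In LEV mice *C1ql2* was at 46.02 and 50.09 CPM at 6 h and at 27.5 and 46.04 CPM at 2 days (logFC −0.17 and 0.05 against untreated SE).

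Of the 5 markers, 0 were called higher and 1 lower (*Plk5*) in SE 6 h mice against pre-SE, where 2.76% of all genes were called higher and 0.202% lower. At 2 days 0 were called higher and 2 lower (*Plk5*, *Tdo2*), where 5.07% of all genes were called higher and 0.593% lower. Since the markers were chosen with these comparisons known, nothing is read from those counts. The call of *Plk5* at 6 h was lost without any 1 of the 4 mice compared, with a logFC from −3.31 to −2.69. At 2 days it was lost without either pre-SE mouse or SE 2 days mouse 2 (−3.03 to −1.95). The call of *Tdo2* was lost without any 1 of the pre-SE, SE 6 h or SE 2 days mice (−5.44 to −4.53). With 1 mouse left, its group was assumed to vary like the others.

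By overlap, 2 markers were above and 3 below pre-SE in both SE 6 h mice, where 18.6% of all genes lay above and 31.3% below. At 2 days 0 lay above and 3 below, where 26.3% and 25.6% of all genes did. The 3 below were the same at both times (*Calb1*, *Plk5*, *Tdo2*), as was the case for 13.7% of all genes. The median logFC of the markers was −1.16 at 6 h and −1.10 at 2 days, against −0.13 and −0.03 over all genes tested. Median-of-ratios rescaling, which removes the shift of all genes, gave logFC of 0.73 for *Prox1*, 0.95 for *C1ql2*, −1.04 for *Calb1*, −1.45 for *Tdo2* and −2.88 for *Plk5* at 6 h. With 2 mice a group the smallest two-sided exact permutation p of a single gene is 0.333.

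**Figure D2:**
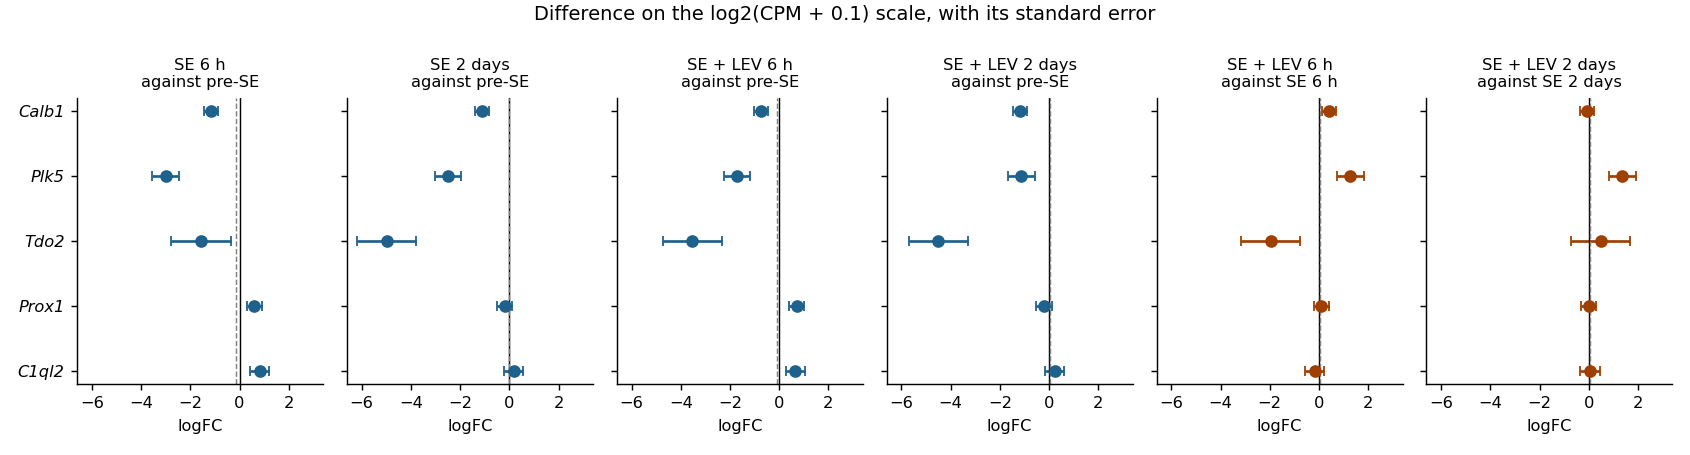
Differences (logFC on the log2(CPM + 0.1) scale, horizontal axes) of the 5 markers in 6 comparisons, with the standard error of the limma fit as bars and the median over all genes tested as a dashed line. *Plk5*, *Tdo2* and *Calb1* lay left of 0 in all 4 comparisons with pre-SE, and *Plk5* lay right of 0 in both comparisons of LEV with untreated SE.

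LEV mice were also set against pre-SE mice, which the untreated comparisons share. In SE + LEV 6 h mice 0 markers were called in either direction, where 0.315% of all genes were called higher and 0.00631% lower. *Prox1* (logFC 0.70) and *C1ql2* (0.66) lay above pre-SE in both mice, and *Calb1* (−0.74), *Plk5* (−1.72) and *Tdo2* (−3.54) below. At 6 h 17.0% of all genes lay above and 25.5% below. In SE + LEV 2 days mice again 0 were called, where 2.83% were called higher and 0.0189% lower. *Calb1* (−1.18), *Plk5* (−1.13), *Tdo2* (−4.50) and *Prox1* (−0.21) lay below pre-SE in both mice, as did 17.5% of all genes, and 0 lay above, where 22.6% did. *C1ql2* (0.22) overlapped.

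Against untreated SE, LEV gave 0 called markers at 6 h, where 0.0% of all genes were called higher and 0.0126% lower by limma. Without adjustment, 184 genes were higher and 542 lower at p under 0.05. At 2 days 0 markers were called, and 0.0% of all genes in either direction, with 208 genes higher and 220 lower at an unadjusted 0.05. *Plk5* was the 1 marker without overlap at each time. Of all genes, 16.1% lay above and 13.4% below at 6 h, and 15.2% above and 12.2% below at 2 days. The effect of LEV at 2 days differed from that at 6 h for 0 markers and 0.0% of all genes by the limma interaction (251 genes higher and 126 lower at an unadjusted 0.05). A difference that was not called is not shown to be absent with 2 mice a group.

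From 6 h to 2 days without LEV, 0 markers were called, where 3.14% of all genes were called higher and 1.11% lower. *Prox1* (logFC −0.80) and *Tdo2* (−3.42) lay below in both mice, as did 20.1% of all genes, and 0 markers lay above, where 31.0% did. *C1ql2* (−0.65), *Calb1* (0.07) and *Plk5* (0.51) overlapped between the times.

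Levels were next set against *Prox1* of the same library. *Prox1* was itself higher at 6 h, which lowers the ratios at that time, and *Calb1* is also made by other cells. *Calb1* tags per *Prox1* tag were 5.89 and 4.94 before SE and 2.11 and 1.19 at 6 h. At 2 days the ratio was 2.40 and 3.48 in untreated mice. LEV mice were at 1.80 and 2.18 at 6 h and at 2.81 and 2.68 at 2 days. All 8 SE mice were therefore below both pre-SE mice, as were 3.46% of 15850 genes when set against *Prox1*.

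*Plk5* per *Prox1* was 0.164 and 0.267 before SE, 0.0153 and 0.0173 at 6 h and 0.0474 and 0.0353 at 2 days. In LEV mice it was 0.0488 and 0.0299 at 6 h and 0.0920 and 0.131 at 2 days. *Tdo2* per *Prox1* was 0.121 and 0.0672 in pre-SE mice and at most 0.0226 in SE mice. *C1ql2* per *Prox1* was 0.535 and 0.522 in pre-SE mice and 0.365 to 0.966 in SE mice, on both sides of pre-SE. *Calb1*, *Plk5* and *Tdo2* were lower relative to *Prox1* in every SE mouse than in both pre-SE mice, and *C1ql2* was not. The CPM of these 3 markers was already below pre-SE in every SE mouse, so nothing further is read from their ratios.

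**Figure D3:**
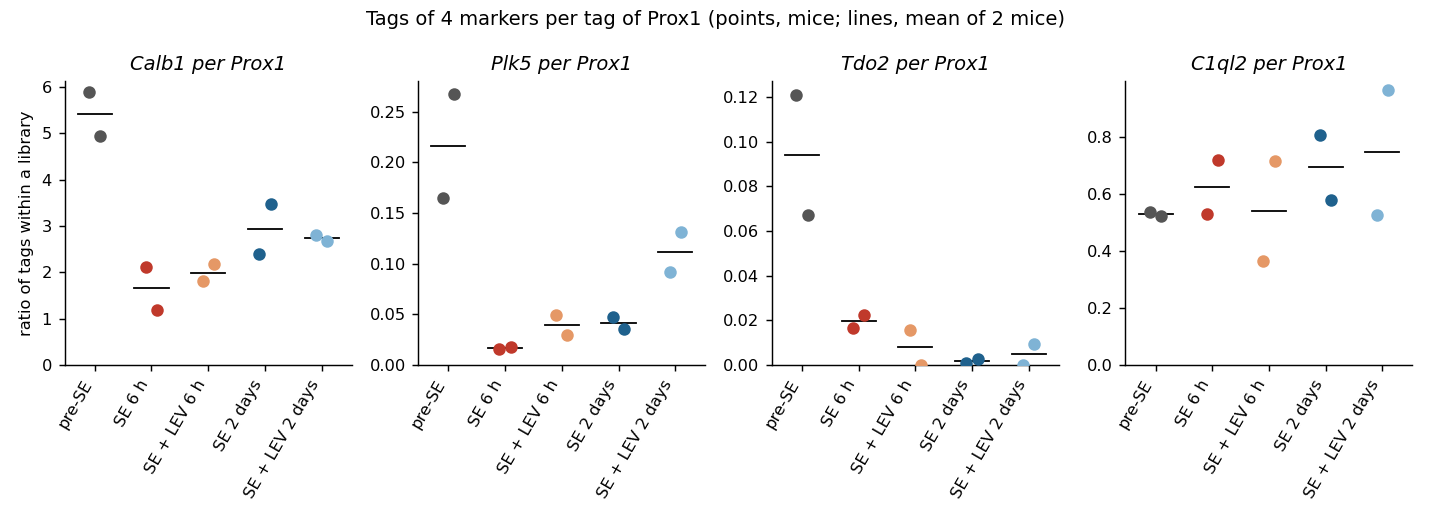
Tags of 4 markers per tag of *Prox1* in the same library (vertical axes, one scale per gene) for each mouse (points) and as the mean of 2 mice (lines). The *Calb1* ratio was 1.19 to 3.48 in the 8 SE mice against 4.94 and 5.89 in pre-SE mice, whereas the *C1ql2* ratio overlapped.

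Across the 10 libraries, which share their groups, the log2 levels of *Calb1* and *Plk5* (Pearson r 0.70), of *Prox1* and *C1ql2* (0.67) and of *Calb1* and *Tdo2* (0.63) were the most alike among the markers. The r was −0.11 for *Prox1* and *Plk5* and −0.37 for *Calb1* and *C1ql2*. Among the genes of the whole table most like the mean profile of the markers were *Mfge8* (r 0.967), *6430573F11Rik* (0.954), *Gm16263* (0.944) and *Pcdh20* (0.942), out of 14220 genes of at least 1 CPM. Most like single markers were *Per1* (0.941) and *Gm12966* (0.939) for *Prox1*, *Hgsnat* (0.960) and *Gm11459* (0.957) for *Calb1*, and *Sarm1* (0.936) and *Slc1a2* (0.926) for *Tdo2*. For *C1ql2* they were *Dll4* (0.936) and *Prpf38a* (0.919), and for *Plk5* *Lrrc4b* (0.975) and *Slc25a35* (0.970). *Per1*, a clock gene that neuronal activity also induces, was at 73.87 and 79.34 CPM in pre-SE mice and at 154.66 and 161.16 CPM in SE 6 h mice. *Mfge8*, which encodes a secreted protein that bridges phagocytes to dying cells, was at 148.12 and 152.25 CPM in pre-SE mice and at 55.97 and 55.64 CPM in SE 2 days mice.

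Of 10 other granule cell genes, 1 rose and 1 fell at 6 h, 0 rose and 1 fell at 2 days, and 0 were called with LEV at either time. For these and the lists that follow, the shares of all genes called were 2.76% higher and 0.202% lower at 6 h and 5.07% and 0.593% at 2 days. *Fam163b* fell at 6 h from 77.01 and 92.05 to 24.09 and 22.13 CPM (logFC −1.86, standard error 0.31, limma adjusted p = 0.011, 0.0070 to 0.096 over the alternatives). By 2 days it was at 84.2 and 44.42 CPM, and it rose from 6 h to 2 days (logFC 1.40, limma adjusted p = 0.034, 0.029 to 0.19). Its level in SE 2 days mice overlapped with that before SE through mouse 1, while mouse 2 lay below both pre-SE mice. *Fam163b* was at 51.55 and 53.19 CPM in SE + LEV 2 days mice, below both pre-SE mice, as were 17.5% of all genes. *Pdzd2*, which encodes a PDZ domain protein, rose at 6 h from 30.9 and 32.7 to 65.56 and 105.79 CPM (logFC 1.39, standard error 0.30, limma adjusted p = 0.039, 0.018 to 0.27). *Ablim3*, which encodes an actin-binding LIM protein, fell at 2 days from 14.45 and 25.26 to 8.4 and 6.07 CPM (logFC −1.41, standard error 0.33, limma adjusted p = 0.035, 0.032 to 0.28). The call of *Fam163b* at 6 h was lost without any 1 of the 4 mice compared, and that of its rise to 2 days without either SE 6 h mouse or SE 2 days mouse 1. With only the groups compared, the calls of *Pdzd2*, *Ablim3* and the rise of *Fam163b* to 2 days were lost. The call of *Pdzd2* was also lost without either pre-SE mouse or SE 6 h mouse 2, and that of *Ablim3* without pre-SE mouse 2, any mouse at 6 h or either SE 2 days mouse.

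The other 7 genes of that list were not called. Both SE 2 days mice were below both pre-SE mice for 6 of the 10 genes, and both were above for 2, where 25.6% and 26.3% of all genes were. *Lrrtm4*, which encodes a synaptic adhesion protein of granule cell dendrites, was at 54.08 and 42.37 CPM before SE, 26.97 and 28.16 at 6 h and 32.52 and 21.64 at 2 days. *Glis3*, a zinc finger transcription factor, was at 7.04 and 5.67 CPM in pre-SE mice and at 17.6 and 18.68 in SE 2 days mice. The median logFC of the list was −0.74 at 6 h and −0.88 at 2 days, and 0.23 and 0.31 with LEV against untreated SE. Both LEV mice were above both untreated mice for 6 of the 10 genes at 6 h and for 2 at 2 days, as were 16.1% and 15.2% of all genes.

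Immature granule cell genes were examined because dedifferentiated cells are described by their return. Of 7 measured, 1 rose at 6 h and 1 fell at 2 days. At 6 h 2 were above and 3 below pre-SE in both mice, where 18.6% and 31.3% of all genes were. At 2 days 2 were above and 4 below, where 26.3% and 25.6% of all genes were. *Sox11*, a transcription factor of newborn neurons, rose at 6 h from 24.0 and 23.73 to 116.91 and 58.38 CPM (logFC 1.79, standard error 0.34, limma adjusted p = 0.023, 0.017 to 0.12). Its call was lost without either pre-SE mouse or SE 6 h mouse 1 and with only the groups compared. *Neurod1*, which drives granule cell differentiation, was at 30.42 and 47.36 CPM in pre-SE mice and fell to 18.19 and 10.32 CPM at 2 days (logFC −1.46, standard error 0.37, limma adjusted p = 0.0497, 0.043 to 0.40). That call was lost without either pre-SE mouse, any of the 4 mice at 6 h or SE 2 days mouse 2, and under 5 of the 6 other settings. *Sox11* was above both pre-SE mice at 2 days too, at 47.11 and 69.83 CPM (logFC 1.26), without a call. *Sox4*, a related factor, was at 13.52 and 12.09 CPM before SE, 19.5 and 24.05 at 6 h and 15.39 and 16.86 at 2 days, also above pre-SE at both times without a call. The symbol *Sox4* had 2 rows, and these values are of the row with the higher mean. *Dcx* (doublecortin) was at 10.48 and 9.98 CPM before SE, 6.64 and 7.61 at 6 h and 8.18 and 4.63 at 2 days. *Calb2* (calretinin) was at 65.25 and 102.43 CPM in pre-SE mice and at 43.88 and 25.84 in SE 2 days mice. The median logFC of the list was −0.52 at 6 h and −0.40 at 2 days.

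Partners of *C1ql2* at mossy fibre synapses are the neurexin *Nrxn3* and the kainate receptor subunits *Grik2* and *Grik4*. In the list of 9 mossy fibre and C1q-like partner genes, 1 rose and 0 fell at 6 h and 0 were called at 2 days or with LEV. *Pdyn*, the precursor of the opioid peptide dynorphin stored in mossy fibres, rose at 6 h from 3.59 and 2.98 to 12.57 and 12.81 CPM (logFC 1.92, standard error 0.44, limma adjusted p = 0.046, 0.028 to 0.25). LEV mice at 6 h were at 7.31 and 5.22 CPM. The call was lost without any 1 of the 6 pre-SE, SE 6 h or SE + LEV 6 h mice. At 6 h 2 of the 9 lay above and 3 below pre-SE in both mice, where 18.6% and 31.3% of all genes did. At 2 days 1 lay above and 4 below, where 26.3% and 25.6% did. *Grik2* was at 86.36 and 94.33 CPM before SE, 58.57 and 58.58 at 6 h and 65.08 and 55.69 at 2 days. *Grik4* was at 64.39 and 49.68 CPM before SE, 68.25 and 69.75 at 6 h and 52.7 and 36.11 at 2 days. *Nrxn3* was at 183.96 and 174.02 CPM in pre-SE mice and at 146.97 to 184.49 in untreated SE mice, with overlap at both times. The other C1q-like genes *C1ql1* and *C1ql3* were not called in any comparison.

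**Figure D4:**
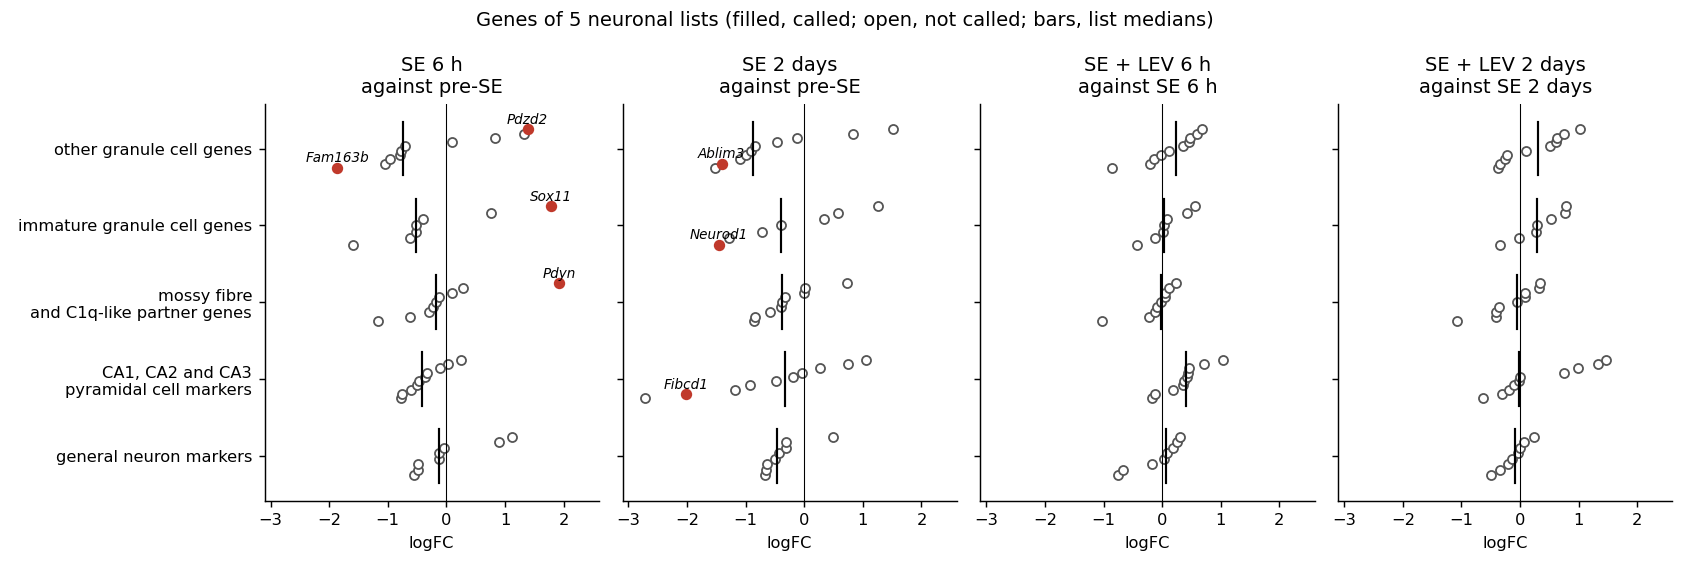
Differences (logFC, horizontal axes) of the measured genes of 5 neuronal lists in 4 comparisons, as filled points where called by limma and open points where not, with the list median as a vertical bar. At 6 h *Fam163b* lay at −1.86 while *Pdzd2*, *Sox11* and *Pdyn* lay at 1.39 to 1.92, and no gene of these lists was called in either comparison of LEV with untreated SE.

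The families of the markers were examined in the same way. Of 4 other polo-like kinases, *Plk1*, a mitotic kinase, rose at 2 days from 0.17 and 0.23 to 4.03 and 8.36 CPM (logFC 4.31, standard error 0.50, limma adjusted p = 0.0014, 0.00076 to 0.019). It was at 7.91 and 4.19 CPM in SE + LEV 2 days mice. *Plk2*, which neuronal activity induces, was at 352.36 and 364.41 CPM in pre-SE mice and at 936.01 and 803.45 CPM in SE 6 h mice, without a call. In both SE 2 days mice all 4 other kinases lay above pre-SE, where 26.3% of all genes did, and *Plk5* lay below. Of the 4, *Plk1* alone was called at 2 days. At 6 h 2 of the 4 lay above pre-SE in both mice and 1 (*Plk4*) below, where 18.6% and 31.3% of all genes did. *Plk5* was chosen by its values in these comparisons, so nothing is read from its contrast with the other kinases. Of 11 tryptophan and kynurenine pathway enzymes other than *Tdo2*, 4 were measured and 0 were called. Of the 4 enzymes, 1 lay above and 1 below pre-SE in both SE 2 days mice, where 26.3% and 25.6% of all genes did. *Ido2*, which catalyses the same step as *Tdo2*, was at 1.52 and 1.12 CPM in pre-SE mice and at 0.72 and 0.43 in SE 2 days mice. *Afmid* went the other way, from 6.76 and 16.3 CPM in pre-SE mice to 30.44 and 26.94 in SE 2 days mice. Of 9 desmosome genes 7 were measured, of 3 other EF-hand calcium buffers 2, and 0 were called in either list.

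Markers of other cells moved with the same comparisons. Of 8 general neuron markers 0 were called, and their summed level was 10499 and 9572 CPM before SE, 9725 and 7495 at 6 h and 7976 and 7046 at 2 days. Of 7 interneuron markers 0 were called, with a sum of 802.24 to 1739.68 CPM over these groups. The astrocyte marker *Gfap* rose at 2 days from 245.62 and 230.22 to 2281.84 and 3642.11 CPM (logFC 3.60, limma adjusted p = 0.00095, 0.00038 to 0.010). The summed level of 5 astrocyte markers was 3270 and 4738 CPM in SE 2 days mice, most of it *Gfap*, against 2084 and 1926 in pre-SE mice. Of these 5 markers, 3 were above and 2 below both pre-SE mice in both SE 2 days mice, where 26.3% and 25.6% of all genes were. *Slc1a2* was at 1546.8 and 1484.23 CPM in pre-SE mice and at 786.25 and 808.71 CPM in SE 2 days mice. *Aqp4* rose at 2 days (logFC 1.57, limma adjusted p = 0.011, 0.0080 to 0.13), a call lost without either pre-SE mouse or SE 2 days mouse 2. The microglia markers *Tmem119* (logFC −2.50, limma adjusted p = 0.0048) and *P2ry12* (−2.51, 0.012) fell at 6 h. *Aif1* rose at 2 days (2.28, limma adjusted p = 0.0030), and *Cx3cr1* rose from 6 h to 2 days (1.77, limma adjusted p = 0.021). The call of *P2ry12* was lost without pre-SE mouse 1 or either SE 6 h mouse, and that of *Cx3cr1* without SE 6 h mouse 2 or either SE 2 days mouse. The endothelial marker *Cdh5* rose at 6 h (2.10, limma adjusted p = 0.0061), a call lost without pre-SE mouse 2 or SE 6 h mouse 2. Of 5 oligodendrocyte markers 0 were called, but all 5 were below both pre-SE mice in both SE 2 days mice, as were 25.6% of all genes, with a median logFC of −1.17 beside −1.10 for *Calb1*. Their summed level was 4653 and 5116 CPM before SE, 3201 and 6114 at 6 h, 1668 and 2575 at 2 days and 3065 and 4258 in SE + LEV 2 days mice. Of 4 choroid plexus markers 0 were called. Summed microglia markers were 156.02 and 147.91 CPM before SE, 79.06 and 68.59 at 6 h and 288.82 and 273.82 at 2 days. CPM values are shares of a library, so a larger share of some tags lowers the others. The part of these cells in the marker differences was not tested.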

How the data were processed

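The authors extracted total RNA (RIN over 7.0) from whole hippocampi and sequenced CAGE libraries as single 75 nt reads. They mapped the tags to mm9 with BWA 0.7.17 and those left with HISAT2 2.0.5 and clustered them. edgeR 3.22.5 and bedtools 2.12.0 are named in the submitters' processing notes. The authors deposited CPM values per gene, rounded to 2 decimals, and the step from clusters to genes is not given in the sources used here. All 15900 identifiers matched the annotation, and 0 columns held samples of no label.

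Each library's total was a number for which all values are whole tags within 0.0051 CPM. In each library 137 to 1771 totals fitted the low values, and the one nearest the sum of its own tags was taken. The totals served only for depth, tag counts and intervals. log2(CPM + 0.1) was fitted for the 15851 genes that reached 0.1 CPM in 2 or more libraries, with limma 3.58.1 (R 4.3.3, trend, two-sided) in 1 model of 5 group means. p-values were adjusted by Benjamini-Hochberg over all genes, and genes at 0.05 or less were called. This code was tested on simulated data. The markers and lists were chosen with earlier results of these data known. For list symbols with 2 rows (*Sox4*, *Pou3f1*), only the row with the higher mean was used. Named were all markers, up to 4 called genes a list, the 5 genes most like the mean marker profile (1 is not reported here) and 2 for each marker. Other genes of a list are named as examples chosen after their values were seen. Alternatives were log2(CPM + 1), no filter, at least 1 CPM in 2 libraries, replicate number as a block, median-of-ratios rescaling, only the groups compared, and each mouse left out. Promoters were RefSeq sequences, found for 5 of 6 markers. Sums, ratios and figures used Python 3.11.15 and pandas 2.3.3.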

Additional observations from a re-analysis of the deposited data

How the results depend on the processing

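No called value changed sign under 16 alternatives. With the replicate number as a block (replicate block), 2 markers were called at 6 h (*Calb1*, *Plk5*), 2 at 2 days (*Calb1*, *Plk5*) and 1 in SE + LEV 2 days against pre-SE (*Calb1*), and 2 and 0 genes of the other granule cell, immature and mossy fibre lists were called at 6 h and 2 days, against 4 and 2 without it. Same-numbered mice are different animals, and whether they share a day or batch is not given in the sources used here. Correlations of their deviations ran from −0.44 to 0.34 over 7 comparisons. With log2(CPM + 1), 1 marker (*Tdo2*) was called in SE + LEV 2 days against pre-SE. At 2 days the other lists had 1 call with log2(CPM + 1), with no filter and with median-of-ratios rescaling. With only the groups compared they had 2 calls at 6 h and 0 for 2 days against 6 h, where 1 marker (*Tdo2*) was then called, and 3 markers (*Calb1*, *Plk5*, *Tdo2*) were called at 2 days against pre-SE.

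Leaving out 1 mouse gave 0 to 1 called markers at 6 h, 0 to 2 at 2 days, 0 to 1 in SE + LEV 2 days against pre-SE and 0 to 1 for 2 days against 6 h. The other lists had 0 to 5, 0 to 3 and 0 to 1 calls at 6 h, 2 days and for 2 days against 6 h. The median logFC of the markers ran from −0.11 to 0.53 for LEV at 6 h and from −1.15 to −0.0586 for 2 days against 6 h. Of 560 differences of a marker under an alternative, 542 kept their sign and 531 their side of the call threshold, with 14 calls lost and 15 gained. The 18 that changed sign were not called. Over all genes, calls for SE + LEV 6 h against pre-SE went from 50 higher to 14 with log2(CPM + 1) or only the groups compared, and for SE + LEV 2 days against pre-SE from 448 higher to 0 with only the groups compared. LEV against SE at 6 h went from 2 lower to 9 with log2(CPM + 1), 4 with rescaling and 0 with the block or only the groups compared. Leaving out 1 mouse gave 108 to 494 higher and 2 to 37 lower at 6 h, against 437 and 32, and 245 to 990 higher and 3 to 190 lower at 2 days, against 803 and 94. The cause of the changes was not tested. The planned tests on tag counts were not run. The deposited values are CPM rounded to 2 decimals, and the tags recovered from them served only for depth, tag counts and intervals. Depth limits *Tdo2* at 2 days, with 0 to 11 tags a mouse.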
